A study of Homo sapiens with 6 samples.

Results

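The nuclear pore complex and the receptors that carry cargo through it were examined at the RNA level in U937 cells, an established human myeloid leukaemia line, either wild type or labelled shENO1, a label taken here to mean a short hairpin RNA that targets the glycolytic gene ENO1 (alpha-enolase). The group held 52 genes, taken by symbol from a table of 58735 genes: 27 nucleoporins and 25 import receptors, export receptors and Ran cycle genes. Of these, 51 averaged 1 FPKM or more and were tested. FPKM is a read number divided by gene length and library size, so levels can be set beside each other between genes. Total RNA was sequenced from 3 libraries of wild-type U937 cells and 3 libraries of U937 cells labelled shENO1. The control was labelled wild type, and no library of a control hairpin was analysed here. Whether replicates are separate cultures, and whether the shENO1 cells are 1 clone or a pool, is not stated in the labels, so the p-values here may reflect no more than technical spread between libraries. In such bulk libraries, RNA per cell and the mix of cells cannot be told apart.

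Nucleoporins build the pore as stacked rings. An outer ring of Y-shaped complexes and an inner ring form the scaffold, membrane proteins anchor it, and nucleoporins rich in phenylalanine-glycine (FG) repeats fill the channel. Importins bind cargo in the cytoplasm, exportins bind it in the nucleus together with the GTPase Ran, and the exchange factor RCC1 and the activating protein RANGAP1 keep Ran loaded with GTP on the nuclear side. Rapidly dividing cells such as leukaemia cells need a steady supply of pores, and the exportin XPO1 is a drug target in leukaemia.

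In the shENO1 cells 9 of the 51 tested genes were higher and 0 lower (limma on log2(FPKM + 1), Benjamini-Hochberg adjusted p under 0.05 over 12809 genes). Over all tested genes, 7.86% were higher and 6.46% lower, against 17.6% of these genes higher. An unadjusted p under 0.05 was found for 23 of the 51 genes (45.1%), against 31.7% of all tested genes. The 9 genes were the import receptors IPO9, IPO11, IPO8 and TNPO2, the export receptors XPO5, XPO4 and XPO6, and the scaffold nucleoporins NUP155 and NUP160. Thus 7 of the 24 tested receptor and Ran cycle genes were called, but only 2 of the 27 nucleoporins, near the share of all genes. The ratios of mean FPKM ran from 1.36-fold for NUP160 to 1.88-fold for IPO11. The log2 fold change was above 0 in 41 of 51 genes, with a median of 0.24, against 6162 of 12809 genes and a median of -0.02 for all genes tested. The importin alpha genes, KPNB1 and the Ran cycle genes were not among the called genes. Nor were the membrane nucleoporins and the genes of the channel, the cytoplasmic side and the nuclear basket. With 7.86% of all tested genes called higher, 0 calls do not set groups this small apart.

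These calls rested on few libraries. With 1 library left out, 1 gene was higher without wild-type replicate 1 (all genes: 1.15% higher), 1 without wild-type replicate 2 (1.67%), 2 without shENO1 replicate 1 (2.25%) and 3 without shENO1 replicate 2 (5.32%). Without wild-type replicate 3 there were 12 (7.14%), and 10 when shENO1 replicate 3 was the one left out (5.71%). IPO9 was called in each of these 6 fits, IPO11 in 4 and XPO5 in 3. NUP155, IPO8, TNPO2 and XPO6 were called in 2 of them, and NUP160 and XPO4 in only 1.

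**Figure D1:**
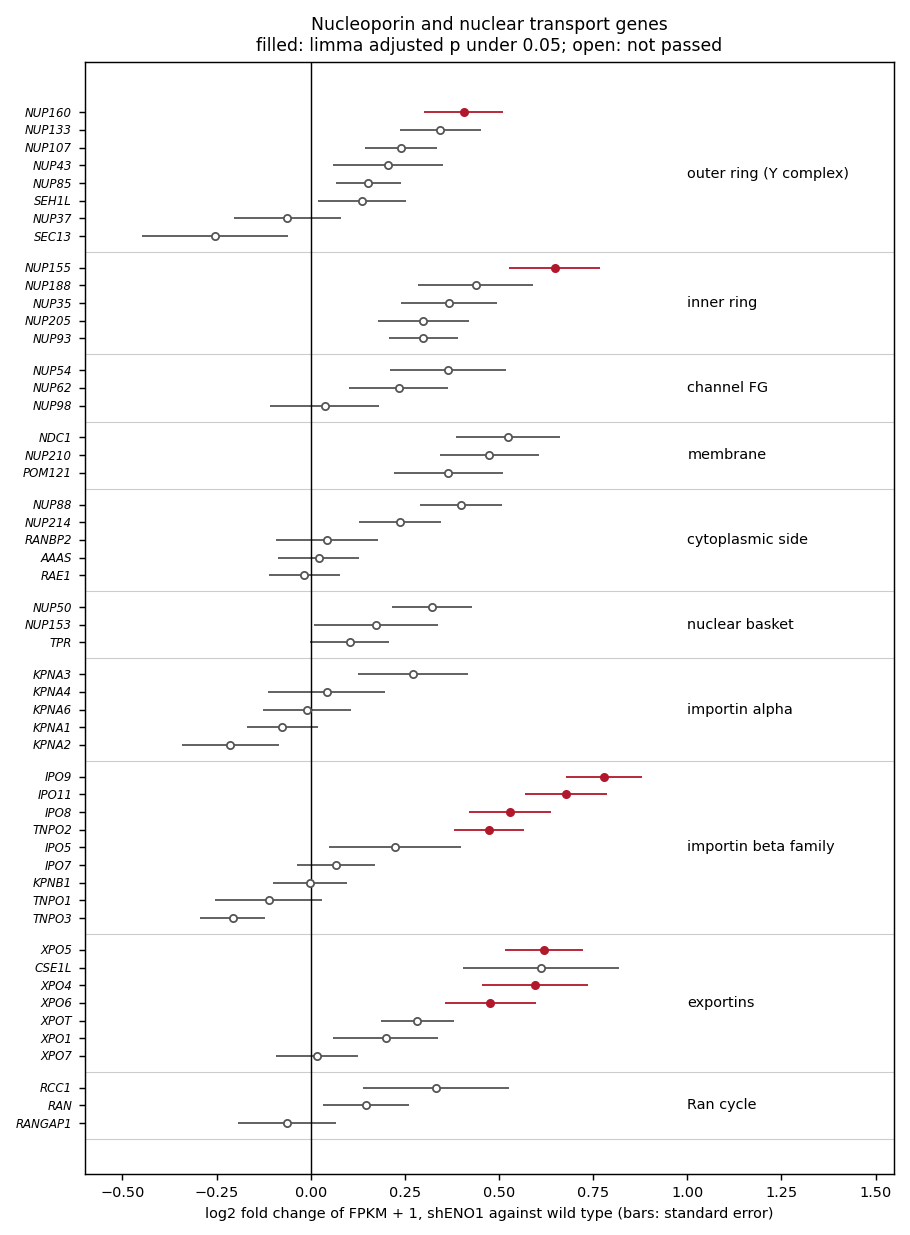
Log2 fold change of FPKM + 1 (horizontal axis, shENO1 against wild type) of the 51 tested genes, grouped by role, with the standard error as bars. The 9 filled points passed the limma test, and all 9 lie to the right of 0, between 0.41 for NUP160 and 0.78 for IPO9.

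ENO1 was measured first as a check of the labels. Wild-type libraries held 526, 545 and 561 FPKM, and shENO1 libraries 91.5, 82.8 and 111 FPKM. The ranges lay far apart, and 17.5% of the wild-type mean was left (log2 fold change -2.51, limma adjusted p = 0.00129; exact two-sided permutation p = 0.1, the smallest that 3 against 3 libraries allow). Recovered reads in genes ranged from 14216739 to 17499636 per library. Of the 10 myeloid markers checked, 8 were present in every library, among them SPI1 (54.9 to 68.8 FPKM), LYZ, ELANE and PTPRC, while MPO (0.0336 to 0.357 FPKM) and CD68 (0.0909 to 0.857 FPKM) were nearly absent. The summed level of these 10 genes was 1103 to 1328 FPKM in wild-type and 1830 to 2215 FPKM in shENO1 libraries. The higher sum came from PRTN3, ELANE and LYZ, with means of 196, 498 and 384 FPKM in wild-type and 513, 789 and 634 FPKM in shENO1 cells. The log2 fold changes were -0.15 for CD33, -0.18 for PTPRC, -0.17 for CSF3R, 0.04 for SPI1 and 0.11 for ITGAM. Of the 8 tested, 1, PRTN3, was called higher (2.62-fold, limma adjusted p = 0.0123), where 7.86% of all tested genes were. Of 15 markers of other cell types, 7 were at 0 in every library, among them CD3D, CD3E, MS4A1 and HBB, and their sum was 23.6 to 26.6 FPKM in wild-type and 26.5 to 29.2 FPKM in shENO1 libraries. The B cell gene CD79A was at 6.13, 8.30 and 6.39 FPKM in wild-type and 3.98, 2.63 and 5.41 FPKM in shENO1 libraries, without overlap (limma adjusted p = 0.0816). The fibroblast gene COL1A1 was also lower in each shENO1 library (1.08, 1.25 and 0.652 FPKM) than in the wild-type ones (1.45, 1.28 and 1.47 FPKM, limma adjusted p = 0.298). Of all tested genes, 17.9% had all shENO1 libraries below all wild-type ones. The endothelial gene PECAM1, which myeloid cells also express, rose (1.36-fold, limma adjusted p = 0.0409). It was the 1 called higher of the 4 tested markers of other cell types, where 7.86% of all tested genes were. The part of these markers in the results below was not tested.

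The promoters of the 9 genes that were higher were searched for short motifs, beside those of the whole group. RefSeq windows on GRCh38.p14 were found for 48 of the 52 genes, and the 250 bases before each listed start were read on both strands, so a gene with several listed starts counted where any window held the letters. The E-box CACGTG, the core site of MYC and related factors, was found in 9 of 48 genes (18.8%) and in 11.7% of 8317 tested genes with a window, but in 1 of the 9 higher genes, TNPO2. RAN, RCC1, XPO1, IPO7, KPNA3, NUP188, NUP50 and IPO4 were the others. IPO4 was not tested and so is counted in the 48 but not in the 8317, and it also held the ETS letters. The ETS core CCGGAAGT was found in 8 of 48 genes (16.7%, tested genes 9.22%), of the higher genes in NUP160. The E2F-type letters TTTGGCGC or TTTCGCGC were found in 1 of 48 (2.08%, tested genes 2.15%), IPO11. The CRE TGACGTCA was found in 2 (4.17%, tested genes 3.64%) and the NRF1 consensus in 3 (6.25%, tested genes 2.49%), none of them among the 9. A match of letters is a description and not a measured site. Shown here are the 250 bases before the start of IPO9, the gene with the lowest adjusted p and with none of these motifs (chr1:201828907-201829156, plus strand), and of the 3 higher genes with a match, IPO11 (chr5:62412513-62412762, plus strand), TNPO2 (chr19:12723933-12724182, minus strand) and NUP160 (chr11:47848351-47848600, minus strand), each 5′ to 3′ with the match in capitals. For IPO11, TNPO2 and NUP160 the window shown is that of 1 of 2 listed starts. The IPO11 window lies wholly inside the gene as the deposited table bounds it. Those of IPO9, TNPO2 and NUP160 overlap their genes in part, and the matches of TNPO2 and NUP160 lie in that part.
IPO9: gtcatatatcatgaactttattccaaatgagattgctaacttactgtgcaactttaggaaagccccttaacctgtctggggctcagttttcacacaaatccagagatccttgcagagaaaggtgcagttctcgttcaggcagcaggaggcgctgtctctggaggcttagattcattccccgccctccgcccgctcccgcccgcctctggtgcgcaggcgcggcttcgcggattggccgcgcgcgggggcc
IPO11: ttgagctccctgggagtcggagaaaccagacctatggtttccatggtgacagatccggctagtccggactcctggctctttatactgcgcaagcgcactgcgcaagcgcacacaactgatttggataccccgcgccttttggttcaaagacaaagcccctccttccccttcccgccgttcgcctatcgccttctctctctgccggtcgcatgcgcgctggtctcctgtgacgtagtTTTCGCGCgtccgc
TNPO2: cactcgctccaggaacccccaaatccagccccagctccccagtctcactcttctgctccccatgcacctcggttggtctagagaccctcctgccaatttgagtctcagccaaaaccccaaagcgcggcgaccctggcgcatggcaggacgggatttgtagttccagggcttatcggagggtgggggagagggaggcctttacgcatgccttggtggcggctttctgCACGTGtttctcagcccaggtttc
NUP160: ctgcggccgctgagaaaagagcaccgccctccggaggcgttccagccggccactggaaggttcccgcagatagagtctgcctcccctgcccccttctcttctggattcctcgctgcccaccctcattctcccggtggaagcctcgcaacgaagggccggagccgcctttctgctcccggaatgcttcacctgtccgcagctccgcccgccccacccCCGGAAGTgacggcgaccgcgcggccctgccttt

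Of the import receptors of the importin beta family, 4 of 9 tested were higher and 0 lower, against 7.86% and 6.46% of all tested genes. IPO9, a carrier of histones and actin, lies on chromosome 1 (201829141 to 201884294, plus strand, GRCh38). Wild-type libraries held 8.67, 7.85 and 9.38 FPKM of IPO9, and shENO1 libraries 16.3, 16.1 and 14.2 FPKM. All 3 shENO1 libraries lay well above the wild-type ones, and its adjusted p was the lowest of the 9 genes (1.80-fold, log2 fold change 0.78, SE 0.10, limma adjusted p = 0.00827, over 1463 to 3016 reads per library). IPO11, which imports ubiquitin-conjugating enzymes, lies on chromosome 5 (62403972 to 62628582, plus strand). It was a low gene, at 2.07, 1.97 and 2.37 FPKM in wild-type and 3.65, 4.40 and 3.996 FPKM in shENO1 libraries (1.88-fold, log2 fold change 0.68, SE 0.11, limma adjusted p = 0.0135). The groups did not overlap. IPO11 shares 22.6% of its exon bases with KIF2A and LRRC70 on the same strand in GENCODE 29, so part of its reads could be theirs.

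IPO8 (chromosome 12, 30628988 to 30695986, minus strand) and IPO7 encode closely related import receptors. IPO8 was at 4.46, 4.44 and 5.17 FPKM in wild-type and 6.57, 8.15 and 6.95 FPKM in shENO1 libraries (1.54-fold, log2 fold change 0.53, SE 0.11, limma adjusted p = 0.0263). IPO7, which also carries ribosomal proteins, was at 24.1, 25.8 and 25.8 against 23.5, 28.7 and 27.4 FPKM, with overlapping groups (log2 fold change 0.07, limma adjusted p = 0.698). The ratio of IPO8 to IPO7 within a library was 0.185, 0.172 and 0.200 in wild-type and 0.279, 0.284 and 0.254 in shENO1 libraries.

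TNPO2 (chromosome 19, 12699194 to 12724011, minus strand) was at 10.4, 9.40 and 8.67 FPKM in wild-type and 13.9, 13.4 and 13.3 FPKM in shENO1 libraries (1.43-fold, log2 fold change 0.47, SE 0.09, limma adjusted p = 0.0224). Its close relative TNPO1, a receptor for RNA-binding proteins such as the hnRNPs, was at 19.9, 19.1 and 25.4 against 18.7, 22.6 and 18.0 FPKM (log2 fold change -0.11, limma adjusted p = 0.637). The ratio of TNPO2 to TNPO1 was 0.521, 0.491 and 0.341 in wild-type and 0.744, 0.593 and 0.739 in shENO1 libraries, without overlap. TNPO3, the receptor of SR splicing factors, was the only 1 of the 51 genes with all shENO1 libraries below all wild-type ones, where 17.9% of all tested genes had that order. It was at 40.0, 41.7 and 40.2 FPKM in wild-type and 33.3, 35.3 and 36.7 FPKM in shENO1 libraries (log2 fold change -0.21, limma adjusted p = 0.154), and did not pass the test.

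Among the highest receptors of this family, no difference passed. KPNB1 encodes importin beta itself, the partner of importin alpha. It stood at 41.1, 40.8 and 46.0 FPKM in wild-type and 39.6, 44.6 and 43.6 FPKM in shENO1 libraries (log2 fold change 0.00, SE 0.10, limma adjusted p = 0.991). IPO5, a receptor of histones and ribosomal proteins, had a mean of 44.5 ± 10.5 FPKM in wild-type and 51.4 ± 5.24 FPKM in shENO1 cells (SD, n = 3; limma adjusted p = 0.429), and wild-type replicate 3, at 56.6 FPKM, was level with the shENO1 libraries.

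IPO4 stood apart from the other receptors, with 0 to 6 reads per library and at most 0.0865 FPKM, and was not tested. In GENCODE 29, 69.3% of its exon bases also belong to the read-through gene AL136295.4 on the same strand. That gene had at most 0.0273 FPKM. How reads that fall in both genes were counted is not given in the sources used here, so the level of IPO4 cannot be read from these values.

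The 5 importin alpha genes, whose products link cargo to importin beta, gave 0 calls. Their median log2 fold change was -0.01. KPNA2, the most abundant of them, was at 85.3, 93.3 and 112 FPKM in wild-type and 77.7, 84.6 and 86.6 FPKM in shENO1 libraries (log2 fold change -0.21, limma adjusted p = 0.304). KPNA3 was at 21.7, 21.5 and 27.5 against 26.2, 33.7 and 26.2 FPKM (log2 fold change 0.27, limma adjusted p = 0.254). The groups of both genes overlapped. KPNA1, KPNA4 and KPNA6 had log2 fold changes from -0.08 to 0.04.

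**Figure D2:**
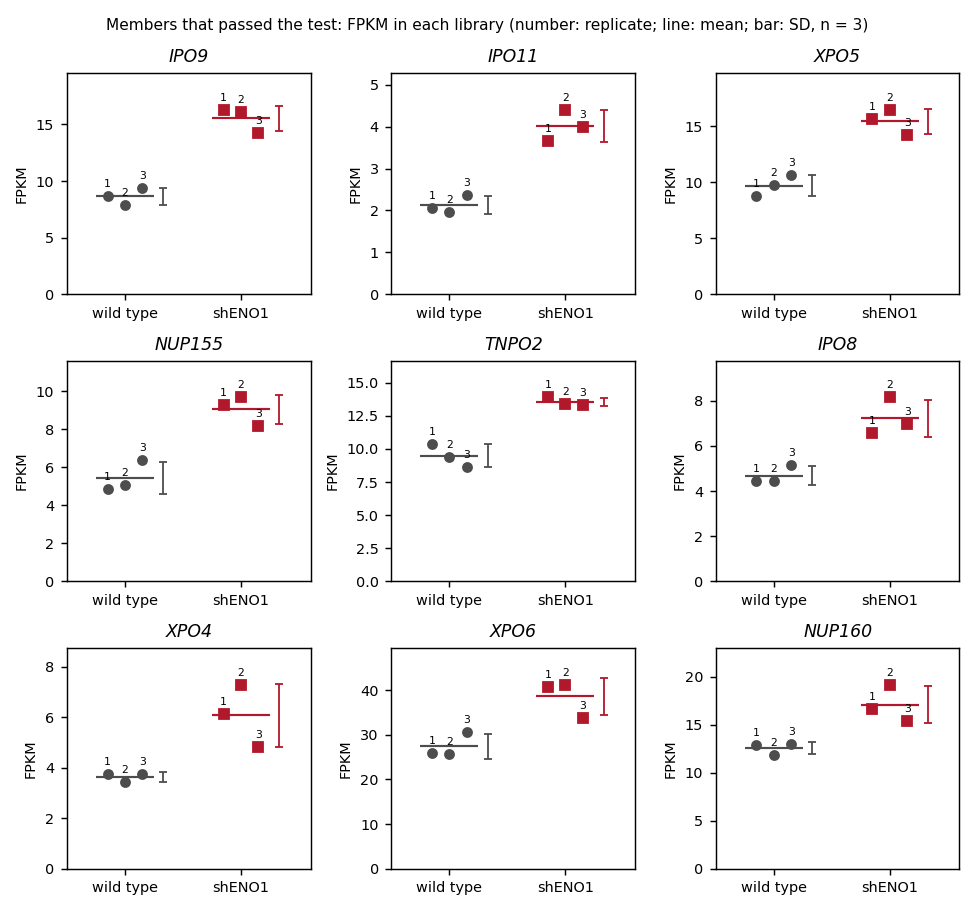
FPKM (vertical axis, from 0) of the 9 genes that passed the test in each library, with circles for wild type, squares for shENO1, the replicate number beside each point, a line at the mean and a bar for the SD (n = 3). In each panel the lowest shENO1 library is above the highest wild-type library, most narrowly, as a ratio, for XPO6 (33.8 against 30.6 FPKM).

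All 7 export receptors had a log2 fold change above 0 (median 0.48), where 48.1% of all tested genes did. XPO7 turned below 0 with the same FPKM total (-0.02) and with the length trend removed. With 1 library left out it went down to -0.051. The test was passed by 3 of the 7, where 7.86% of all tested genes were called higher. XPO5 exports microRNA precursors and lies on chromosome 6 (43522330 to 43576075, minus strand). It was at 8.78, 9.72 and 10.7 FPKM in wild-type and 15.7, 16.5 and 14.2 FPKM in shENO1 libraries (1.59-fold, log2 fold change 0.62, SE 0.10, limma adjusted p = 0.0153). XPO4 (chromosome 13, 20777329 to 20903048, minus strand), an exporter of the translation factor eIF5A, was at 3.76, 3.43 and 3.74 FPKM in wild-type and 6.15, 7.30 and 4.82 FPKM in shENO1 libraries (1.67-fold, log2 fold change 0.60, SE 0.14, limma adjusted p = 0.0380). The shENO1 libraries of XPO4 were spread widely, and shENO1 replicate 3 was the closest to the wild-type range. XPO6 (chromosome 16, 28097979 to 28211920, minus strand), the exporter of actin with profilin, was at 25.9, 25.7 and 30.6 FPKM in wild-type and 40.7, 41.2 and 33.8 FPKM in shENO1 libraries (1.41-fold, log2 fold change 0.48, SE 0.12, limma adjusted p = 0.0459).

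CSE1L, the exporter that returns importin alpha to the cytoplasm, had a log2 fold change close to that of XPO5 but did not pass. It was at 37.2, 37.5 and 59.4 FPKM in wild-type and 63.4, 78.2 and 61.0 FPKM in shENO1 libraries (1.51-fold, log2 fold change 0.61, SE 0.21, limma adjusted p = 0.0961). The groups did not overlap, but wild-type replicate 3 was close to the shENO1 libraries and far from the other wild-type libraries. The ratio of CSE1L to KPNA2 was 0.436, 0.401 and 0.531 in wild-type and 0.816, 0.923 and 0.705 in shENO1 libraries. XPOT, the exporter of tRNA, was at 27.0, 27.6 and 31.2 against 33.03, 36.9 and 35.1 FPKM, also without overlap (log2 fold change 0.28, limma adjusted p = 0.102). XPO1, the general exporter of proteins with a leucine-rich signal, was at 35.9, 36.9 and 43.4 against 42.6, 52.4 and 39.2 FPKM with overlapping groups (log2 fold change 0.20, limma adjusted p = 0.371). XPO7 had means of 29.3 ± 3.61 and 29.5 ± 0.844 FPKM (SD, n = 3), the smallest difference among the exporters.

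Ratios of related genes were formed for 5 pairs, chosen after their values had been seen. On the log2 scale the ratio was higher in shENO1 cells by 0.55 for IPO8 to IPO7, 0.63 for TNPO2 to TNPO1, 0.84 for CSE1L to KPNA2, 0.24 for KPNA3 to KPNA4 and 0.15 for NUP188 to NUP205. The exact two-sided permutation p was 0.1 for the first 4 pairs, the smallest that 3 against 3 libraries allow, and 0.2 for NUP188 to NUP205 (0.125 and 0.2 after Benjamini-Hochberg adjustment over the 5 pairs). No pair could pass 0.05 in this design.

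The 3 Ran cycle genes gave 0 calls. RAN was at 53.5, 59.4 and 59.9 FPKM in wild-type and 58.2, 62.1 and 71.9 FPKM in shENO1 libraries (log2 fold change 0.15, limma adjusted p = 0.426). Its processed copy RANP1 was at 1.22, 1.47 and 4.10 against 5.43, 5.36 and 1.91 FPKM, and how reads that match both were counted is not given in the sources used here. RCC1 was at 24.4, 25.5 and 21.7 against 28.5, 23.7 and 40.7 FPKM (log2 fold change 0.33, limma adjusted p = 0.289), with shENO1 replicate 3 far above the other libraries. It shares 6.2% of its exon bases with SNHG3 on the same strand in GENCODE 29, so part of its reads could come from that gene. RANGAP1 was at 40.7, 42.7 and 41.2 against 40.8, 33.4 and 46.1 FPKM (log2 fold change -0.06, limma adjusted p = 0.782). For these 3 genes shENO1 replicate 3 was the highest library, unlike for most of the group.

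Of the 27 nucleoporins, 24 had a log2 fold change above 0 (median 0.24), where 48.1% of all tested genes did. The test was passed by 2 of the 27, a share near the 7.86% of all tested genes called higher. Of the 24 above 0, AAAS and NUP98 turned to just below 0 with the same FPKM total, and AAAS also with the length trend removed. AAAS, NUP98 and RANBP2 did so in some of the fits that left out libraries. In the inner ring, all 5 genes were above 0, with a median of 0.37. NUP155 (chromosome 5, 37288137 to 37371181, minus strand), a scaffold subunit that contacts the nuclear membrane, was at 4.87, 5.05 and 6.38 FPKM in wild-type and 9.29, 9.68 and 8.17 FPKM in shENO1 libraries (1.67-fold, log2 fold change 0.65, SE 0.12, limma adjusted p = 0.0201). The shENO1 libraries lay clear of the wild-type ones, with wild-type replicate 3 and shENO1 replicate 3 the nearest to each other. NUP205, the most abundant inner ring gene, was at 16.6, 17.0 and 20.5 against 22.9, 24.2 and 20.0 FPKM (log2 fold change 0.30, limma adjusted p = 0.143). NUP188, NUP93 and NUP35 had log2 fold changes of 0.44, 0.30 and 0.37 and limma adjusted p = 0.104, 0.0753 and 0.104.

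In the outer ring, 1 of 8 genes passed, where 7.86% of all tested genes were called higher. NUP160 (chromosome 11, 47778087 to 47848555, minus strand), a core subunit of the Y complex and the higher gene with the ETS letters in its promoter window, was at 12.9, 11.8 and 13.0 FPKM in wild-type and 16.6, 19.2 and 15.4 FPKM in shENO1 libraries (1.36-fold, log2 fold change 0.41, SE 0.11, limma adjusted p = 0.0488). This call was the closest to the threshold. Of its partners, NUP133 (16.6, 17.4 and 20.4 against 22.1, 24.8 and 22.7 FPKM), NUP107 and NUP85 also had no overlap between groups, with log2 fold changes of 0.34, 0.24 and 0.15 and limma adjusted p = 0.0784, 0.146 and 0.272. SEC13, which also serves in the COPII coat of secretory vesicles, had its lowest values in 2 shENO1 libraries. It was at 52.2, 53.4 and 42.8 FPKM in wild-type and 38.7, 33.1 and 54.1 FPKM in shENO1 libraries (log2 fold change -0.25, limma adjusted p = 0.413), so shENO1 replicate 3 was the highest of all 6. NUP43, SEH1L and NUP37 had overlapping groups and log2 fold changes from -0.06 to 0.21.

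The membrane nucleoporins had the highest median of the structural groups, 0.47, with 0 of 3 passing. NUP210, a membrane glycoprotein of the pore, was the most abundant of all 52 genes, at 103, 103 and 129 FPKM in wild-type and 167, 151 and 147 FPKM in shENO1 libraries (1.39-fold, log2 fold change 0.47, SE 0.13, limma adjusted p = 0.0562). NDC1, which anchors the scaffold in the membrane, was at 14.6, 15.4 and 20.0 against 22.7, 26.8 and 23.4 FPKM (1.46-fold, log2 fold change 0.52, SE 0.14, limma adjusted p = 0.0503). Neither gene had overlapping groups, and both lay just outside the threshold. POM121, a membrane protein with FG repeats, was at 10.01, 9.59 and 11.9 against 15.8, 14.5 and 11.3 FPKM (limma adjusted p = 0.141). Its near copy POM121C had overlapping groups (log2 fold change 0.23, limma adjusted p = 0.429), and reads of the 2 genes may have been split between them in an unknown way.

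The channel, the cytoplasmic side and the nuclear basket gave 0 calls among 11 genes. NUP62, an FG nucleoporin of the channel, was at 19.7, 19.8 and 25.9 against 27.1, 26.2 and 23.5 FPKM (log2 fold change 0.23, limma adjusted p = 0.274). NUP54, its channel partner, was at 8.78, 7.64 and 10.2 against 9.86, 14.1 and 11.4 FPKM (log2 fold change 0.37, limma adjusted p = 0.159). NUP98, an FG nucleoporin known from leukaemia fusion genes, had a log2 fold change of 0.04. The groups of all 3 overlapped. NUP88, on the cytoplasmic face, was at 7.06, 7.74 and 8.58 against 10.7, 11.6 and 9.53 FPKM without overlap (1.36-fold, log2 fold change 0.40, limma adjusted p = 0.0548). In GENCODE 29 NUP88 shares 8.8% of its exon bases with RABEP1 and 9.8% with RPAIN, both on the opposite strand. The strand of the reads is not given in the sources used here, so part of the NUP88 reads could be theirs. NUP214, the partner of NUP88, had a log2 fold change of 0.24 (limma adjusted p = 0.191). RANBP2, a large filament protein, AAAS and the mRNA export factor RAE1 had log2 fold changes between -0.02 and 0.04. RANBP2 was at 15.2, 16.2 and 17.3 against 16.8, 19.9 and 14.0 FPKM, and of its near copies only RGPD8 reached a mean of 1 FPKM (log2 fold change 0.21, limma adjusted p = 0.513). In the basket, NUP50 was at 5.65, 6.24 and 7.17 against 8.25, 8.64 and 7.62 FPKM without overlap (log2 fold change 0.32, limma adjusted p = 0.0898), while NUP153 and the basket filament gene TPR had overlapping groups and log2 fold changes of 0.17 and 0.10. TPR, the most abundant of the 3, was at 25.9, 25.7 and 27.5 against 29.2, 31.1 and 25.2 FPKM (limma adjusted p = 0.544).

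In 20 of the 51 genes (39.2%) all 3 shENO1 libraries lay above all 3 wild-type libraries, against 19.6% of all tested genes. Of these 20 genes 11 did not pass the test. The libraries within a group were not alike. For the median gene of the group, the deviation from the mean of all 6 libraries on the log2(FPKM + 1) scale was -0.18, -0.19 and 0.00 in wild type and 0.09, 0.22 and 0.06 in shENO1. Wild-type replicate 3 was the highest wild-type library in 42 of the 51 genes, against 5385 of 12809 genes tested, and shENO1 replicate 3 was the lowest shENO1 library in 30 of 51, against 4548 of 12809. Without these 2 libraries together, 24 genes were higher and 1, SEC13, was lower (all genes: 12.9% higher, 15.9% lower). The 2 libraries were known to lie apart when this setting was chosen, so a smaller spread was built into it.

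**Figure D3:**
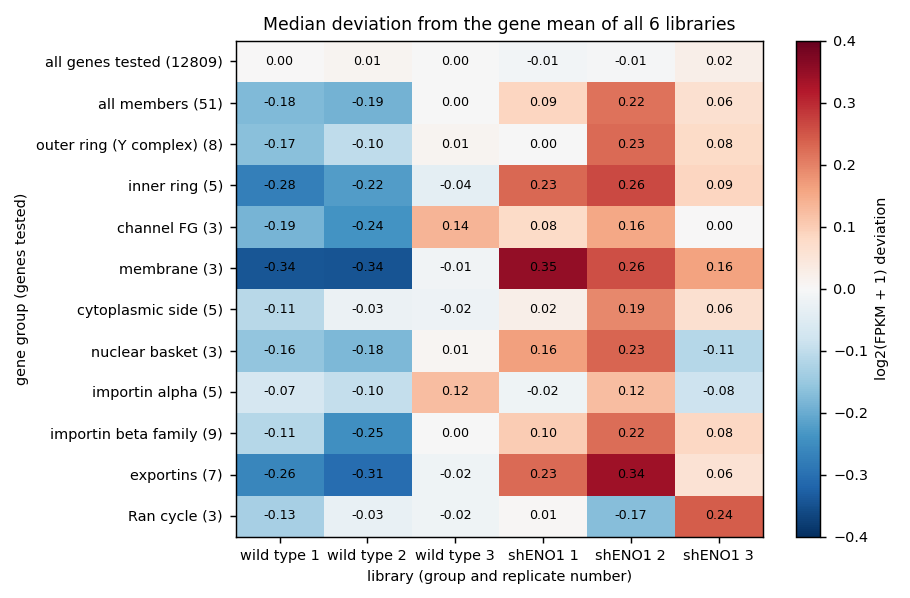
Median deviation from the gene's mean over the 6 libraries, on the log2(FPKM + 1) scale, for all tested genes and for each role group (rows, with the number of genes tested) in each library (columns). The exporters and the membrane nucleoporins run from about -0.3 in wild-type replicates 1 and 2 to 0.34 and 0.35 in a shENO1 library, while wild-type replicate 3 lies near 0 for most rows.

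Gene length, abundance and the mitochondrial share of reads were set beside these results. The genes of the group are long, with a median gene model of 7364 bases, against 4152 over all tested genes. Long genes had higher deviations in shENO1 replicates 1 and 2 (Spearman rho with gene length across 12809 genes 0.122 and 0.233) and lower ones in wild-type replicates 1 and 2 (-0.181 and -0.203), while wild-type replicate 3 and shENO1 replicate 3 were at 0.059 and -0.044. These are correlations across genes within 1 library, and genes are not replicates. With the trend with length removed from each library, 10 genes were higher (all genes: 8.56%) and 0 lower, all 9 named above among them, and the median log2 fold change was 0.22. The genes were also abundant, with a median of 16.4 FPKM against 6.37 FPKM over all tested genes. What part abundance had in the share of calls was not tested. The mitochondrial share of reads was 3.38% to 5.19% in wild-type and 5.72% to 7.42% in shENO1 libraries. Each library was also rescaled to the median of the non-mitochondrial genes that had reads in every library. Then 7 genes were higher (all genes: 7.74%), all of them among the 9. This is another method of scaling, and what part the mitochondrial share had was not tested.

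**Figure D4:**
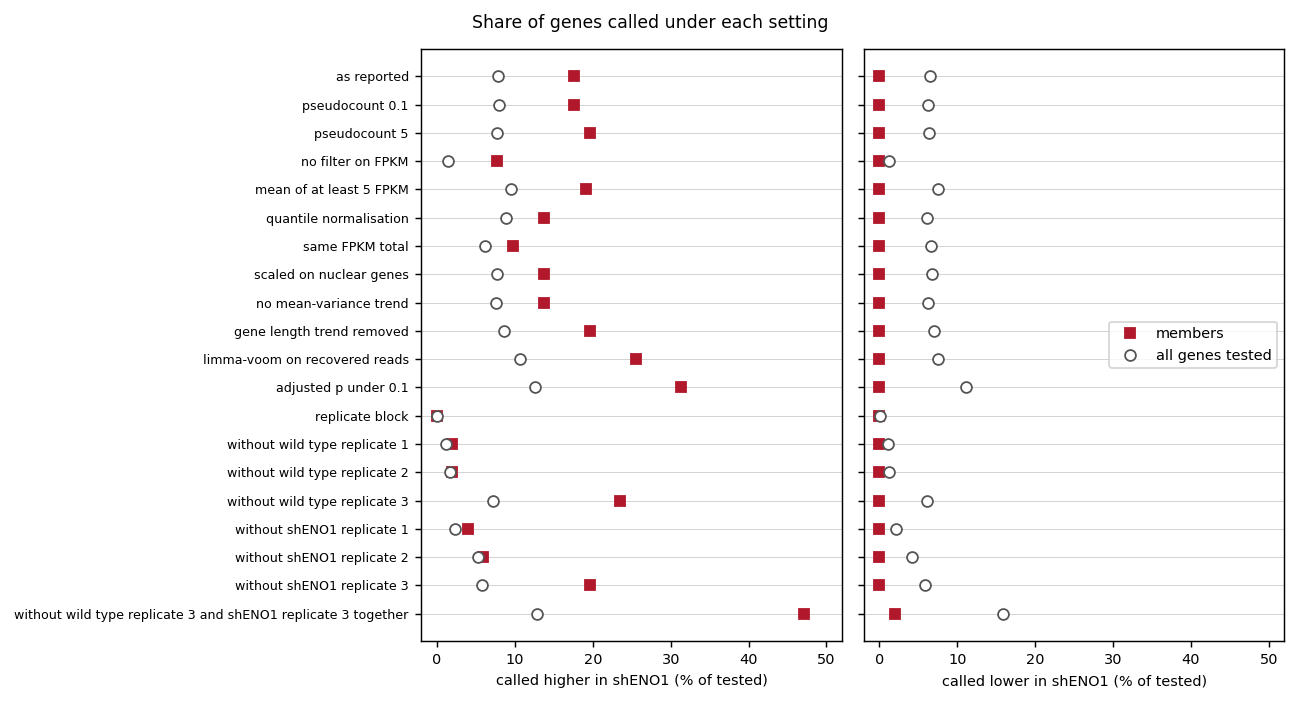
Share of tested genes called higher (left) and lower (right) in shENO1 cells under each setting (rows), with squares for the nuclear pore and transport genes and circles for all genes tested. The share of pore and transport genes called higher is 17.6% as reported against 7.86% of all genes, and both are 0% with the replicate number as a block.

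Counted on reads instead of FPKM, 13 genes were higher (limma-voom on reads recovered from the table, all genes: 10.7% higher, 7.52% lower) and 0 lower. These were the 9 genes above with NDC1, NUP210, NUP88 and CSE1L, at limma-voom adjusted p = 0.0236, 0.0292, 0.0421 and 0.0460. The count was 9 with a pseudocount of 0.1 and 10 with a pseudocount of 5 (all genes: 7.89% and 7.72%). It was 5 once every library had been given an equal FPKM total (6.2%), 4 with no filter on FPKM, when 31500 genes were tested (1.41%), and 9 at a mean of at least 5 FPKM (9.46%). It was 7 after quantile normalisation (8.86%), 7 with no mean-variance trend (7.6%), 16 at an adjusted p under 0.1 (12.5%) and 0 with the replicate number as a block (0%). Under these settings, with the length trend removed, with scaling on non-mitochondrial genes and with 1 library left out, 0 pore and transport genes were lower. The shares of all genes called lower were 6.21% with a pseudocount of 0.1, 6.32% with a pseudocount of 5 and 1.21% with no filter. At a mean of at least 5 FPKM and after quantile normalisation they were 7.57% and 6.16%. With the same FPKM total and with scaling on non-mitochondrial genes they were 6.64% and 6.75%. They were 6.29% with no mean-variance trend, 6.94% with the length trend removed, 11.1% at an adjusted p under 0.1 and 0.00781% with the block. Leaving out wild-type replicate 1, 2 or 3 gave 1.05%, 1.24% and 6.05%, and leaving out shENO1 replicate 1, 2 or 3 gave 2.08%, 4.16% and 5.84%.

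Other genes of the pathway were tested in the same fits. Of all tested genes, 14.3% passed by limma and 18.2% by limma-voom, counting higher and lower together. Of 25 tested further transport genes, among them AHCTF1, GLE1, NUP58, IPO13, NXF1 and RANBP1, 0 passed by limma and 1 by limma-voom, and 5 had an unadjusted p under 0.05 (20%, against 31.7% of all tested genes). Their median log2 fold change was 0.15, and 20 of 25 were above 0 (80%). The share above 0 was 80.4% in the pore and transport genes and 48.1% over all tested genes. Of 13 mRNA export genes of the TREX complexes, 0 passed by limma, and 3 had an unadjusted p under 0.05 (23.1%), with a median log2 fold change of 0.11. By limma-voom 1 of them, ENY2, was lower (log2 fold change -0.66, limma-voom adjusted p = 0.0421). Of 14 nuclear lamina and inner membrane genes, 1 was higher (7.14%, against 7.86% of all tested genes) and 0 lower (median -0.05). It was TOR1A, an ATPase of the nuclear envelope and endoplasmic reticulum, at 7.15, 7.74 and 6.94 FPKM in wild-type and 9.61, 9.80 and 11.3 FPKM in shENO1 libraries (1.41-fold, log2 fold change 0.44, limma adjusted p = 0.0309). TOR1A did not pass when any 1 of the 6 libraries was left out (limma adjusted p = 0.0553 to 0.120).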

How the data were processed

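RNA was measured in 3 wild-type and 3 shENO1 libraries of U937 cells, from libraries of a TruSeq kit, as the labels' protocols state. FPKM per gene and library were made by the authors with Cuffnorm on hg38 (GRCh38), with Cufflinks and STAR also named, per the submitters' processing notes. Versions, settings, strand and the handling of reads shared by genes are not given in the sources used here. Whole reads were recovered from FPKM times gene length in 100% of values (tolerance 0.001). The table's positions for all 52 genes were those of GENCODE 29.

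Genes averaging 1 FPKM or more were tested on log2(FPKM + 1), which understates changes of low genes, with limma 3.58.1 in R 4.3.3 (2 groups, mean-variance trend, Benjamini-Hochberg adjustment). Fold values are ratios of mean FPKM. The test was tried on simulated reads. The members, lists and settings were chosen with earlier results of these data known. Described in full were genes that passed, and in each role group the most abundant gene and those with the largest increase and decrease; others were named after their values had been seen. The replicate number was not read as a pairing. Figures were drawn with matplotlib 3.10.9.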

Additional observations from a re-analysis of the deposited data

How the results depend on the processing

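Leaving out 1 library gave 1 to 12 higher and 0 lower pore and transport genes, 147 to 914 higher and 134 to 775 lower genes among all tested, 0 to 1 further transport genes, 0 to 2 export and lamina genes (the 2 both lower), and log2 fold changes of -2.63 to -2.42 for ENO1. Higher pore and transport genes numbered 4 with no filter, 5 with the same FPKM total, 16 at adjusted p under 0.1, 0 with the replicate block, and 24 (with 1 lower) without both replicates 3; all genes then numbered 445 higher and 381 lower, 794 and 850, 1607 and 1426, 0 and 1, and 1649 and 2033. With the replicate block ENO1 kept its value (-2.51, limma adjusted p = 0.0713). The labels do not say whether the replicate numbers pair the libraries. Deviations from the group means correlated at -0.085, -0.334 and -0.459 between same-numbered libraries, across genes. So few libraries cannot decide whether the numbers are pairs. Further transport genes called numbered 1 at a mean of at least 5 FPKM (all genes, higher or lower: 17%) and 1 with the length trend removed (15.5%). They numbered 1 with limma-voom (18.2%), 3 at adjusted p under 0.1 (23.7%) and 3 without both replicates 3 (28.7%). For export and lamina genes these numbers were 0 with no filter (all genes: 2.62%) or the block (0.00781%). They were 2 with the same FPKM total (12.8%) or limma-voom (18.2%), and 3 with the length trend removed (15.5%). At adjusted p under 0.1 there were 5 (23.7%), and without both replicates 3 there were 7 (28.7%). The cause of these moves was not tested. Some of the settings also changed the number of libraries or of genes tested.

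The sign changed in 34 of the 965 refits of single genes, all in 11 genes that had not passed. Leaving out 1 library gave ranges of -0.05 to 0.093 for AAAS, -0.053 to 0.189 for KPNA4, -0.074 to 0.089 for KPNA6, -0.035 to 0.052 for KPNB1, -0.176 to 0.057 for NUP37, -0.034 to 0.162 for NUP98, -0.078 to 0.037 for RAE1, -0.076 to 0.162 for RANBP2, -0.167 to 0.06 for RANGAP1, -0.207 to 0.009 for TNPO1 and -0.051 to 0.111 for XPO7. Other reversals were AAAS (-0.017 with the same FPKM total, -0.021 with the length trend removed, -0.048 without both replicates 3), KPNA6 (0.148) and TNPO1 (0.069) without both replicates 3, KPNB1 (0.033 after quantile normalisation, 0.006 with limma-voom, 0.035 without both replicates 3), NUP98 (-0.002 with the same FPKM total) and XPO7 (-0.024 with that total, -0.007 with the length trend removed).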
